A study of Homo sapiens with 4 samples.

Results

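The genes described here build the nuclear pore and drive the Ran transport cycle: 39 genes, namely 24 of pore proteins that include AAAS, RAE1 and NDC1, 4 of the Ran cycle, and 11 of the karyopherins that carry cargo. They were picked by name with the lower NUP93, AAAS and RANGAP1 of the miRNA arrays already known, so every difference of these genes from the controls is a description and supports nothing by itself. All 39 were expressed, among 12264 expressed genes, and 123 of the 54675 probe sets of the array were annotated to them, of which 108 passed the filter on dim signal. T84 is a human colorectal carcinoma line that forms epithelial layers, grown here on permeable filters, and Affymetrix U133 Plus 2.0 arrays measured its messenger RNA. The 2-miRNA array held cells transfected with miR-451 and miR-338-3p and harvested on day 5. The 4-miRNA array held cells given miR-210 and miR-33a as well, also harvested on day 5. Both control arrays held cells given a short negative-control RNA, harvested on day 5 for one and on day 7 for the other. The labels give 15 pmol of oligonucleotide for every group, without saying whether this is the total or the amount of each miRNA. Each group was 1 array, with no replicate, so there is no test, no p-value and no measure of variation between cultures. Array signals were multiplied to a common trimmed mean of 500, and a log2 difference is the difference of log2(scaled signal + 32), which understates changes of dim genes. A gene was counted as higher or lower when its log2 difference was at least 1, a 2-fold change, on the expressed probe set of highest mean, which stands for the gene.

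Facts of the arrays that touch every value below are these. As deposited, the trimmed mean signal was 147.3 and 150.0 on the miRNA arrays against 76.59 and 74.29 on the day 5 and day 7 controls, so brightness and miRNA treatment cannot be told apart. The highest deposited signal nevertheless lay between 17830 and 18750 on all 4 arrays, and that of the GAPDH 3′ probe set between 12948 and 14259, which after scaling became 44881 and 47756 on the miRNA arrays against 84532 and 95965 on the controls. What such a ceiling does to the brightest genes was not tested. The 3′ to 5′ signal ratio, a measure of intact RNA, was 0.951 to 1.02 for GAPDH and 1.97 to 2.33 for ACTB, with both miRNA arrays just below both controls for GAPDH (0.962 and 0.951 against 1.02 and 0.978) and on neither side of them for ACTB. All 10 colon epithelium markers were expressed on these arrays, with a summed scaled signal of 169657 to 225876, against 2 of 6 fibroblast markers (404 to 641), 1 of 5 leukocyte markers (170 to 252) and 1 of 4 endothelium markers (219 to 367). Each sum runs over all markers listed for the type, expressed or not. In a bulk sample, fewer cells of a type and less RNA per cell cannot be told apart.

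The nuclear pore is a ring-shaped channel through the nuclear envelope, built from many copies of each nucleoporin in stacked rings: an outer ring on each face, an inner ring around the membrane, a meshwork of phenylalanine-glycine (FG) repeats in the channel, filaments on the cytoplasmic face and a basket on the nuclear face. Transport runs on the small GTPase RAN, which is held in its GTP form in the nucleus by the exchange factor RCC1 and turned to its GDP form outside by RANGAP1. Importins release cargo when they meet RAN-GTP, and exportins bind cargo together with it. In dividing epithelial cells the envelope and its pores are taken apart and rebuilt at each mitosis.

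The transfected miRNAs are shown because they are the treatment of the miRNA arrays, which also differ from the controls in brightness and, for the day 7 control, in harvest day. The sequences are mature forms from RefSeq on GRCh38.p14, with the seed (bases 2 to 8), the part that pairs first with a messenger RNA, in capitals. The labels do not give the arm of miR-210 and miR-33a, and the arm that has carried the plain name is printed; miR-451 is named only. The 3 seeds shown differ from each other.
miR-338-3p (chr17:81125887-81125908, minus strand): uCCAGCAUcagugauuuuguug
miR-33a-5p (chr22:41900949-41900969, plus strand): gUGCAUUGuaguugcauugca
miR-210-3p (chr11:568112-568133, minus strand): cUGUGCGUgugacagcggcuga

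NUP93 links the inner ring and anchors the FG proteins of the channel. Its scaled signal was 942 on the 2-miRNA array, 865 on the 4-miRNA array, 3825 on day 5 without miRNAs and 1862 on day 7. Both miRNA arrays were below both controls, and the day 7 control stood between them and the day 5 control. The log2 difference from the day 5 control was −1.99 with 2 miRNAs and −2.10 with 4, while the day 7 control itself stood at −1.03. Against the day 7 control NUP93 was lower by less: the values were −0.96 and −1.08. As deposited, before any scaling, its signals were 277.4, 259.5, 585.9 and 276.7 in the same order of arrays, so only the day 5 control was apart.

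AAAS encodes aladin, a protein held at the pore membrane by NDC1 and mutated in triple A syndrome. Its only probe set read 340 with 2 miRNAs, 622 with 4 miRNAs, 1312 on the day 5 control and 640 on day 7. The 4-miRNA array and the day 7 control were nearly equal, and the day 5 control was the high array. Differences from the day 5 control were −1.85 and −1.04 with 2 and 4 miRNAs and −1.0 on day 7. Against the day 7 control they were −0.85 and −0.04.

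RANGAP1, the activator of RAN's GTPase on the cytoplasmic side, read 207 with 2 miRNAs, 447 with 4 miRNAs, 1048 on the day 5 control and 631 on day 7. Both miRNA arrays were below both controls on this probe set, at −2.17 and −1.17 from day 5 and −1.47 and −0.47 from day 7. The gene has 2 other expressed probe sets, and they do not place the day 7 control in the same way. On the first the arrays read 368, 343, 913 and 397, and on the second 122, 238, 364 and 160, again in the order 2-miRNA, 4-miRNA, day 5 and day 7. The day 5 control was the highest array on all 3, and on the second the 4-miRNA array was above the day 7 control.

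Whether the rest of the machinery read lower too was asked over the whole list. With 2 miRNAs, 4 of the 39 genes were at least 2-fold lower than the day 5 control (10.3%, against 6.37% of all expressed genes): RANGAP1, NUP93, AAAS and RANBP1. Those calls include the 3 genes the list was drawn up around, so the share cannot be read as a property of the pore. KPNA4 and NUP160 were at least 2-fold higher (5.13%, against 8.11% of all genes). With 4 miRNAs, 5 were at least 2-fold lower (12.8%, against 6.70%), NUP210 joining the same 4, and KPNA4 and NUP160 were again at least 2-fold higher (5.13%, against 8.03%). The median of the 39 genes was −0.39 with 2 miRNAs and −0.47 with 4, where the median of all expressed genes was −0.16 and −0.15. Relative to all genes the list therefore stood at −0.23 and −0.32. Below 0 were 27 of the 39 genes with 2 miRNAs (69.2%, against 59.4% of all genes) and 31 with 4 miRNAs (79.5%, against 59.0%). These comparisons use the same day 5 control array, so the pair does not count as repetition.

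**Figure D1:**
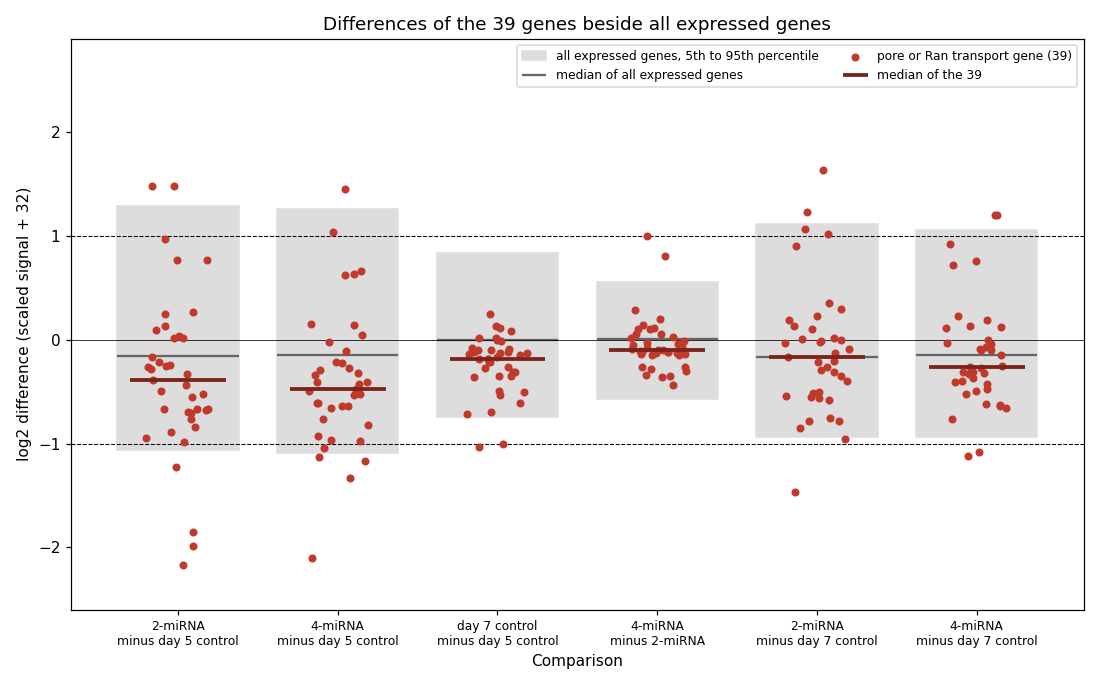
Each point is 1 of the 39 pore and Ran transport genes, and the vertical axis is its log2 difference in each of 6 comparisons of arrays (scaled signal plus 32); gray boxes span the 5th to 95th percentile of all 12264 expressed genes, lines mark medians and dashed lines a 2-fold change. Most points lie inside the boxes, with medians of −0.39 and −0.47 for the miRNA arrays against the day 5 control and −0.19 for the day 7 control, and few lie outside, such as RANGAP1 at −2.17 and NUP160 at 1.48.

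Beside NUP93, the inner ring holds NUP35, NUP155, NUP188 and NUP205. NUP188, a large scaffold protein that pairs with NUP93, read 556 and 525 on the 2-miRNA and 4-miRNA arrays and 1056 and 824 on the day 5 and day 7 controls. Both miRNA arrays were below both controls, at −0.89 and −0.97 from day 5, short of 2-fold, and its other expressed probe set stood at −1.57 and −1.18. NUP155, which joins the ring to the membrane, was at −0.39 and −0.52 on its only probe set. NUP205, the relative of NUP188 that also pairs with NUP93, was at 0.04 and −0.21, and NUP35, which also touches the membrane, at 0.09 and 0.05. Against day 5 none of these genes read as low as NUP93, and for NUP205 and NUP35 the miRNA and control arrays overlapped.

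The outer ring, or Y complex, is the scaffold that also binds chromosomes in mitosis. None of its 7 genes was at least 2-fold lower in any comparison, on the probe set that stands for it. NUP85 was the lowest against day 5 (2347 and 2400 with miRNAs, 3765 on day 5, 3466 on day 7), at −0.67 and −0.64, with both miRNA arrays below both controls. NUP37, NUP43 and NUP133 lay between −0.17 and −0.49 in both comparisons with day 5, and NUP107 was at 0.02 and −0.27. SEH1L, a subunit the pore shares with a nutrient-sensing complex, went the other way, with 4366 and 3979 on the miRNA arrays against 2552 and 2329 on the controls (0.77 and 0.63). Its second probe set did not follow, at −0.12 and −0.60. NUP160, a stem subunit of the Y complex, read 3005 and 2205 with 2 and 4 miRNAs and 1055 and 944 on the controls. It was higher by 1.48 and 1.04 against day 5 and by 1.64 and 1.20 against day 7. The 2-fold call rests on 1 of 3 expressed probe sets. Against day 5 the other 2 read −0.44 and 0.14 with 2 miRNAs and −0.71 and −0.43 with 4 miRNAs. Against day 7 they were above 0 but short of 2-fold, at 0.66 and 0.97 with 2 miRNAs and 0.39 and 0.40 with 4.

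Of the membrane proteins, NUP210 has 5 expressed probe sets, and all were below 0 against the day 5 control on both miRNA arrays, the range being −1.33 to −0.02 with 2 miRNAs and −1.33 to −0.03 with 4. The probe set that stands for NUP210, a glycoprotein that spans the envelope, read 667 and 521 with miRNAs and 1358 and 1170 on the controls. It had both miRNA arrays below both controls, at −0.99 and −1.33 against day 5 and −0.78 and −1.12 against day 7. NDC1, the membrane anchor that recruits aladin, was at 0.02 and −0.34. In the channel, NUP98 and NUP54 were on opposite sides. NUP98, an FG protein whose gene also encodes the scaffold protein NUP96, read 1231 and 1152 with miRNAs against 1972 and 1813 on the controls (−0.67 and −0.76 from day 5). NUP54, a coiled-coil FG protein, read 5486 and 5100 against 3210 and 2680 (0.77 and 0.66), and reached 1.02 and 0.92 against day 7.

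On the cytoplasmic face, RAE1, the messenger RNA export factor that binds NUP98, was the lowest, with 2096 and 2123 on the miRNA arrays and 4088 and 3618 on the controls (−0.95 and −0.93 from day 5). Its second expressed probe set gave nearly the same, −0.97 and −0.80. NUP214, the filament protein fused in some leukemias, read 382 and 411 against 670 and 666, at −0.76 and −0.66, and all 3 of its expressed probe sets were below 0 in both. NUP88, the partner of NUP214, was at −0.33 and −0.22, with the day 7 control (3283) level with the miRNA arrays (3309 and 3574). RANBP2, the giant filament protein that docks RANGAP1, was on the higher side at 0.97 and 0.62 (4512 and 3538 against 2283 and 2129), but its 3 other expressed probe sets lay between −0.38 and 0.13. RANBP2 has near-identical copies in the genome, the RGPD genes, so its signal may include theirs.

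In the nuclear basket, NUP50, which speeds the release of importin cargo, was at −0.67 and −0.61. Its 5 expressed probe sets ran from −0.67 to 1.08 with 2 miRNAs, so the direction depends on the probe set. NUP153, the FG protein of the basket, was at 0.25 and 0.14, and TPR, the coiled-coil protein that forms the basket's fibers, at −0.25 and −0.53. TPR's probe sets also disagreed, with 3 of 4 above 0 with 2 miRNAs and the highest at 1.07.

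On the probe sets that stand for them, all 4 Ran cycle genes were below 0 against each control on both miRNA arrays, and on day 7 against day 5. These genes had a median of −1.03 with 2 miRNAs and −1.05 with 4 against day 5, −0.43 and −0.44 against day 7, and −0.60 for day 7 against day 5. RANBP1, which helps RANGAP1 to release RAN-GTP from its receptors, read 4620 and 4937 with miRNAs, 10847 on the day 5 control and 6591 on day 7. Both miRNA arrays were the lowest, at −1.23 and −1.13 from day 5 and −0.51 and −0.41 from day 7, and its dimmer second probe set gave −0.15 and −0.32. RCC1, the nuclear exchange factor, read 1057 and 957 against 1917 and 1357, or −0.84 and −0.98 from day 5. Both RCC1 probe sets were below 0, the other at −0.70 and −0.44. RAN itself, the GTPase, read 26563 and 24449 with miRNAs, 38121 on day 5 and 30779 on day 7 (−0.52 and −0.64). The other RAN probe set had the opposite order, 7506 and 7809 against 5045 and 4358 (0.57 and 0.63), so the array gives no single direction for RAN.

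**Figure D2:**
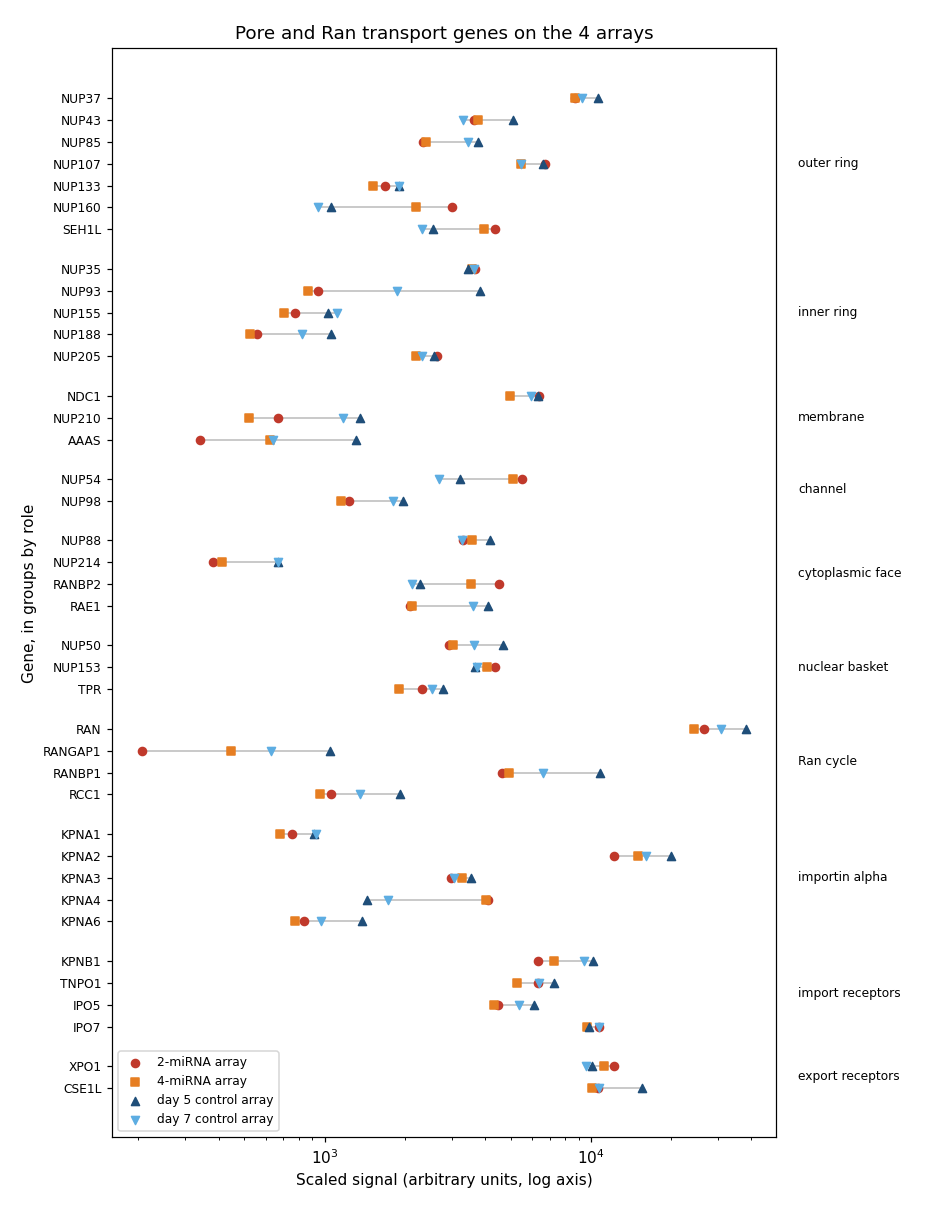
The horizontal axis, logarithmic, is the scaled signal of the probe set that stands for each of the 39 genes, in arbitrary units, with 1 symbol per array and a gray line over the range of the 4 arrays; genes are stacked by role. The miRNA arrays lie left of both controls for NUP93, RANGAP1, RANBP1 and RAE1, and right of both for NUP160, KPNA4, NUP54 and RANBP2.

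Importin alpha proteins recognize the classical nuclear localization signal and hand it to importin beta. KPNA4, importin alpha 3, read 4090 and 4018 on the miRNA arrays and 1448 and 1727 on the controls. It was higher by 1.48 and 1.45 against day 5 and by 1.23 and 1.20 against day 7, with a gap between the sets of arrays. Its other probe sets gave 1.38 and 1.23 against day 5, 0.32 and 0.65, and −0.26 and −0.40. KPNA6 (−0.70 and −0.82) was lower than both controls on its brightest probe set, with another of its 4 probe sets on the other side at 0.71 and 0.73. KPNA2, the importin alpha most tied to proliferation, gave contrary readings: 12187 and 14942 against 19898 and 16050 on one probe set, and 16245 and 14282 against 7917 and 8639 on the other. Those are −0.71 and −0.41 on the first and 1.03 and 0.85 on the second against day 5. KPNA1 was at −0.26 and −0.41, with 1 of its 6 expressed probe sets at −1.23 with 4 miRNAs, and KPNA3 at −0.24 and −0.11.

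Among import receptors, KPNB1, importin beta itself, was at −0.68 and −0.48 with 6327 and 7283 against 10149 and 9444, and its 6 expressed probe sets ran from −0.68 to 0.81 with 2 miRNAs. IPO5, which carries ribosomal proteins and histones, was at −0.44 and −0.49. One IPO5 probe set read 2762 and 3095 on the miRNA arrays against 839 and 1050 on the controls (1.68 and 1.84), the widest disagreement of any of the 39 genes against day 5. TNPO1, the receptor of many RNA-binding proteins, was at −0.21 and −0.47, and IPO7 at 0.13 and −0.02. Of the export receptors, CSE1L, which returns importin alpha to the cytoplasm, read 10579 and 10092 with miRNAs, 15468 on day 5 and 10731 on day 7 (−0.55 and −0.61). On this probe set the day 7 control was next to the miRNA arrays, at −0.02 and −0.09, so the day 5 control was the array apart. Other CSE1L probe sets placed day 7 differently. In the order 2-miRNA, 4-miRNA, day 5 and day 7, one read 2014, 1894, 2104 and 1339, and another 4876, 4537, 7139 and 5694. XPO1, the main protein exporter, was at 0.27 and 0.15.

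The control cells kept on filters until day 7 read slightly lower than those of day 5 on most of these genes. Between the day 7 and day 5 controls, NUP93 and AAAS were at least 2-fold lower (5.13% of the 39 genes, against 2.41% of all genes) and none was at least 2-fold higher (3.35% of all genes were). Below 0 were 32 of the 39 genes (82.1%, against 50.7% of all genes), with a median of −0.19 where all genes had −0.01. After NUP93 and AAAS the lowest were RANBP1 (−0.72), RANGAP1 (−0.70), NUP43 (−0.61) and CSE1L (−0.53). The highest was KPNA4 at 0.25. All 4 Ran cycle genes and all 4 genes of the cytoplasmic face were on the lower side, the latter by 0.35 at most (NUP88 at −0.35).

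With the day 7 control in place of day 5, fewer genes were lower. With 2 miRNAs only RANGAP1 was at least 2-fold lower (2.56%, against 4.04% of all genes), and with 4 miRNAs NUP210 and NUP93 were (5.13%, against 4.15%). At least 2-fold higher were NUP160, KPNA4, RANBP2 and NUP54 with 2 miRNAs (10.3%, against 6.19%) and NUP160 and KPNA4 with 4 (5.13%, against 5.63%). The medians of the 39 genes were −0.17 and −0.26, or −0.01 and −0.11 relative to all genes, nearer to the array as a whole than against day 5. Below 0 were 25 genes with 2 miRNAs (64.1%, against 61.1% of all genes) and 28 with 4 (71.8%, against 60.9%).

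Read over all 4 arrays, 24 of the 39 genes had both miRNA arrays below both controls (61.5%, against 41.0% of all expressed genes) and 7 had both above (17.9%, against 22.8%). The first count depends on how a gene is read. With the median over each gene's probe sets it was 14 of 39, and the share of the list was then below that of all genes (35.9%, against 38.9%). With running-median centring over signal it was 18 (46.2%, against 29.8%). Where the sets of arrays were at least 0.5 apart, 7 genes were lower (17.9%, against 8.27%): NUP85, NUP93, NUP188, NUP210, NUP98, NUP214 and RAE1. All of these are pore proteins, which make up 24 of the 39 genes. Another expressed probe set of NUP98 had both miRNA arrays above the day 7 control (1196 and 1039 against 991), so for NUP98 the gap depends on the probe set. The Ran cycle genes RANGAP1 (−0.47) and RANBP1 (−0.41) were just short of that gap. At the same gap 5 of the 39 genes were higher (12.8%, against 8.74%), namely NUP160, SEH1L, NUP54, RANBP2 and KPNA4, mostly pore proteins too. Of the 30 other expressed genes of the pore and of transport, 7 were lower at this gap and 3 higher. The lower ones include the karyopherins XPO5, XPO6 and TNPO3, so the gap was not confined to pore proteins. At a gap of at least 1, no gene of the 39 was lower (0.538% of all genes were), and NUP160 and KPNA4 were higher (5.13%, against 3.12%).

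The 4-miRNA array was set beside the 2-miRNA array. It differs by the addition of miR-33a and miR-210, and perhaps also by the dose of miR-451 and miR-338-3p: 15 pmol is given for each mix, and the labels do not say whether this is the total or the amount of each miRNA. The added miRNAs and a lower dose of the shared ones cannot be told apart. Few genes of this machinery were far apart: 1 gene was at least 2-fold higher, RANGAP1 at 1.0 (447 against 207; 2.56%, against 1.04% of all genes), and none at least 2-fold lower (1.33% of all genes were). RANGAP1's other probe sets gave 0.81 and −0.09. AAAS came next at 0.81 (622 against 340). The lowest were NUP160 (−0.44), NDC1 (−0.36) and RANBP2 (−0.35), and the median of the 39 was −0.10 with 27 below 0 (69.2%, against 49.2% of all genes).

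The array's own error was read from probe sets of the same gene. Over 1735 genes with 2 bright probe sets each, the SD specific to a probe set was 0.58 and 0.57 for the miRNA arrays against day 5, and 0.27 for day 7 against day 5. It leaves out differences between cultures. Within 1 such SD of 0 lay 19 of the 39 genes on each miRNA array against day 5 (48.7%, against 60.2% and 59.9% of all genes), and 25 on day 7 (64.1%, against 51.1%). Of the 31 genes with 2 or more expressed probe sets, 13 had all of them below 0 with 2 miRNAs (28.8% of all such genes did) and 11 with 4 miRNAs (28.7%). Both times these were NUP37, NUP43, NUP188, NUP210, NUP98, NUP214, RAE1, RANGAP1, RANBP1, RCC1 and KPNA3, and with 2 miRNAs also NUP133 and CSE1L. NUP93 and AAAS are not in that count because each has a single expressed probe set. Against day 5, probe sets on opposite sides of 0 with at least 1 of them past 2-fold were found for 6 genes with 2 miRNAs (NUP160, NUP50, TPR, KPNA2, KPNA4 and IPO5) and 4 with 4 miRNAs (NUP160, KPNA1, KPNA4 and IPO5). The share of all genes that did so was not counted. All probe sets of a gene were on the same side of 0 for 54.8% and 35.5% of the 31 genes, against 48.2% and 48.0% of all such genes. With the median over each gene's probe sets, the lower genes were NUP93, NUP188, AAAS and RANGAP1 on both miRNA arrays (10.3% each time, against 5.45% and 5.86% of all genes by that rule), and no gene was at least 2-fold higher (6.07% and 5.83% of all genes were).

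**Figure D3:**
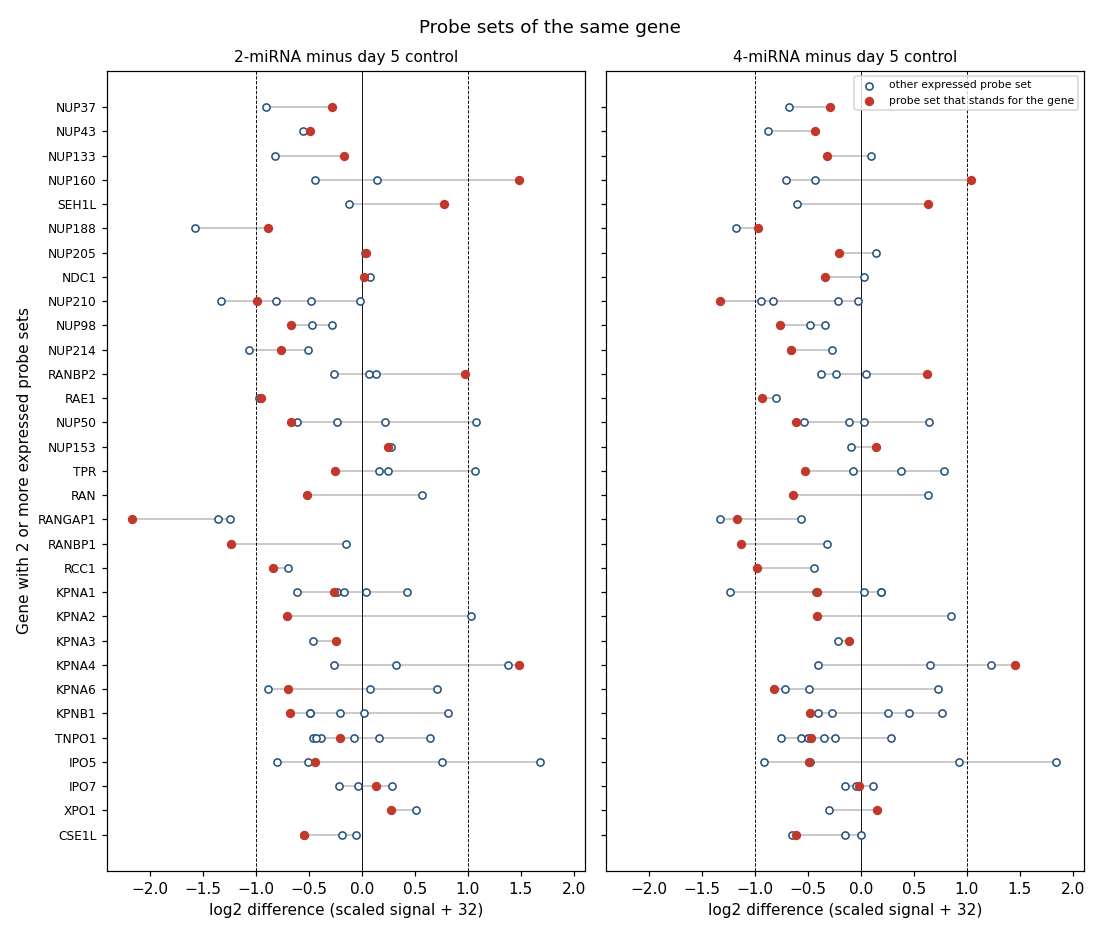
The horizontal axis is the log2 difference from the day 5 control of each expressed probe set, for the 31 genes with 2 or more, on the 2-miRNA array (left) and the 4-miRNA array (right); filled points are the probe sets that stand for the gene, and dashed lines mark 2-fold. All probe sets of RANGAP1 and RAE1 lie below 0, while those of IPO5 spread from −0.80 to 1.68 and from −0.91 to 1.84.

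Signal level was checked because the miRNA arrays were brighter and the 39 genes are mostly bright: 24 of them were in the brightest 2453 of the 12264 expressed genes. In that bin the genes of the list had a median of −0.26 and −0.32 with 2 and 4 miRNAs, where all its genes had −0.13 and −0.10. The 8 genes of the middle bin of 2452 genes, NUP155, NUP188, NUP210, AAAS, NUP214, RANGAP1, KPNA1 and KPNA6, had medians of −0.83 and −0.89 where all genes had −0.19 and −0.16. The 7 genes of the bin between them, NUP133, NUP160, NUP93, NUP205, NUP98, TPR and RCC1, had −0.25 and −0.53 where all genes had −0.13 and −0.10. Genes at least 2-fold lower than day 5 on at least 1 miRNA array came from all 3 bins: NUP210, AAAS and RANGAP1 from the middle bin, NUP93 from the next and RANBP1 from the brightest. For RAN, the brightest, subtracting the running median over signal moved −0.52 and −0.64 to −0.21 and −0.31. After the same step NUP93 stood at −1.89 and −2.07, AAAS at −1.66 and −0.86, and RANGAP1 at −2.01 and −1.02.

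**Figure D4:**
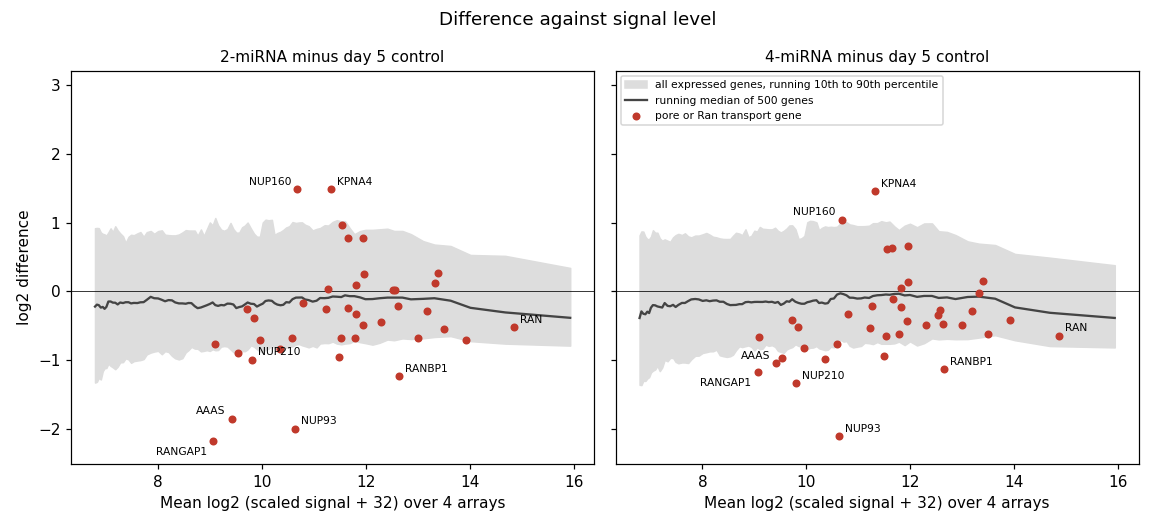
Log2 difference from the day 5 control (vertical) against the mean log2 of scaled signal plus 32 over the 4 arrays (horizontal), for the 2-miRNA array (left) and the 4-miRNA array (right); the line is the running median of 500 genes and the gray band the running 10th to 90th percentile of all expressed genes. NUP93 at −1.99 and −2.10 lies below the band in both, and RAN lies near the line at the bright end.

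Of 38 other genes of the pore and of transport, 30 were expressed. With 2 miRNAs, 6 of these were at least 2-fold lower than the day 5 control (20.0%, against 6.37% of all genes) and none higher (8.11%): XPO5, the exporter of miRNA precursors (918 against 2148, −1.20), RANBP3 (−1.17), NXT1, the partner of the messenger RNA exporter (−1.09), XPO6, the actin exporter (−1.06), TNPO2 (−1.04) and TNPO3, the importer of splicing factors (−1.03). RANBP3 has no single direction: of its 3 expressed probe sets, 1 read 1.76 with 2 miRNAs and 2.13 with 4 against day 5. All expressed probe sets of the other 5 were below 0 in this comparison, NXT1 having 1. With 4 miRNAs, 4 were at least 2-fold lower (13.3%, against 6.70%), namely RANBP3 (−1.44), XPO5 (−1.21), TNPO3 (−1.13) and NXT1 (−1.08), and none higher (8.03%). Between day 7 and day 5 none of the 30 was past 2-fold in either direction (2.41% of all genes were lower and 3.35% higher), and their median was −0.30. Against the day 7 control no gene of the 30 was at least 2-fold lower on either miRNA array (4.04% and 4.15% of all genes were), and KPNA5, an importin alpha, was higher with 2 miRNAs (1.32, 832 against 315). The medians against day 5 were −0.55 and −0.61, and against day 7 −0.36 and −0.27. NUP62, the central FG protein, and SEC13 of the Y complex were close to 2-fold lower on both miRNA arrays, at −0.95 and −0.98 and at −0.91 and −0.90. As with NUP93, both had the day 7 control between the miRNA arrays and the day 5 control. Other pore proteins of this list were above 0 against day 5 with 2 and with 4 miRNAs. They were POM121 (0.67 and 0.56), NUP42 (0.54 and 0.34), AHCTF1 (0.51 and 0.38) and NUP58 (0.23 and 0.06). POM121C (−0.79 and −0.64) and GLE1 (−0.38 and −0.14) were below 0.

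The promoters of NUP93, AAAS and RANGAP1, the genes the question is about, and of NUP160, which read the other way, are shown to let their sequences be compared. Each runs from 250 bases before to 50 after the gene's start, 5′ to 3′ on the gene's strand, from RefSeq on GRCh38.p14, and 35 of the 39 genes matched the table. Capitals mark letters of 6 motifs searched on both strands: CCAAT (bound by NFY), CCGGAAG (ETS factors), CACGTG (the E-box), GGGCGG (SP1), TTTCGCGC or TTTGGCGC (E2F) and TATAAA (the TATA box). Matches of 1 motif may overlap each other.
NUP93 (chr16:56729879-56730178, plus strand): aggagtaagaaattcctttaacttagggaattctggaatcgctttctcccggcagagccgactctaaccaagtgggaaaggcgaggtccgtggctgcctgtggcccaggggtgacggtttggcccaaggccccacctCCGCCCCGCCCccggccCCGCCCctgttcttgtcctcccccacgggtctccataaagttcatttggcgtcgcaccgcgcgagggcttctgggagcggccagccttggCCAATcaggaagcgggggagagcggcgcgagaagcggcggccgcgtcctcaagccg
AAAS (chr12:53321561-53321860, minus strand): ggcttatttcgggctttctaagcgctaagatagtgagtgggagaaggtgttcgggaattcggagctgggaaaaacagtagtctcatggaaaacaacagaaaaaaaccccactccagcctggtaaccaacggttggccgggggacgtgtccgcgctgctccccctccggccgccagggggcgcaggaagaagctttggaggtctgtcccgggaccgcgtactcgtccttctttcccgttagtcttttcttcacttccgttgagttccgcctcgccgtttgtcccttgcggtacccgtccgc
RANGAP1 (chr22:41302320-41302619, minus strand): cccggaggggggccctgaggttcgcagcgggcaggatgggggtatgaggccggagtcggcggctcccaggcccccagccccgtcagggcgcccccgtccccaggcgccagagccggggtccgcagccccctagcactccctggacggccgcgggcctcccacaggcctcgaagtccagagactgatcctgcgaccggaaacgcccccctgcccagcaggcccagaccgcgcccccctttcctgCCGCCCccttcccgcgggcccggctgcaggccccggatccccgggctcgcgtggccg
NUP160 (chr11:47848301-47848600, minus strand): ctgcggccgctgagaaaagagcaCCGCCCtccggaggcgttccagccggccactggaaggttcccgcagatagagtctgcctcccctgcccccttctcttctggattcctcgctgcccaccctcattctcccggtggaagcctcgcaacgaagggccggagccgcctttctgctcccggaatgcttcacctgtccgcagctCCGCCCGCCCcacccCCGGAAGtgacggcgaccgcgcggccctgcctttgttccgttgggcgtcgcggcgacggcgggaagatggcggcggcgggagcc
NUP93 held CCAAT and 3 matches of GGGCGG, RANGAP1 1 match of GGGCGG, and NUP160 CCGGAAG with 3 matches of GGGCGG, while the AAAS window held none of these letters. With no match in AAAS, a motif of this set could not be shared by NUP93, AAAS and RANGAP1, so nothing is concluded from its absence. Over the 35 promoters, CCGGAAG was in 28.6% (19.2% of those of expressed genes and 10.7% of all promoters), CCAAT in 45.7% (37.3% and 35.7%) and GGGCGG in 54.3% (68.2% and 44.6%). CACGTG was in 14.3% (10.2% and 7.43%), the E2F letters in 5.71% (1.99% and 1.18%) and TATAAA in 2.86% (5.93% and 12%). The median number of CG dinucleotides was 26, as in the promoters of all expressed genes, against 14 over all promoters.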

How the data were processed

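Total RNA of T84 cells was measured on 4 arrays, 1 per group. The authors deposited an intensity per probe set, which is a MAS5 signal per the submitters' processing notes; neither version nor scaling target is given in the sources used here. The values are linear and were not at a common level, so each array was scaled to a mean of 500 with 2% of probe sets trimmed at each end, and 32 was added before log2. The array number limits the precision. Of 54675 probe sets, 41097 had 1 gene symbol, 1801 several (left out) and 11777 were unnamed here; 41043 matched RefSeq genes (GRCh38.p14) by gene ID, used for names. Probe sets at or above the median mean log2, or the 75th percentile of any array, were kept, and the one of highest mean stood for its gene. Every one of the 39 genes may be named, and of other transport genes those past 2-fold. Also named are 2 pore proteins just short of 2-fold lower, chosen after their values were seen, and other pore proteins on either side of 0 set beside them. The genes, lists and comparisons were chosen with earlier results of these data known. Steps were tested on simulated data and run with pandas 2.3.3. Alternatives were the offset, the filter, quantile normalization, running-median centring, the probe set rule and the day 7 control. Protein sequences and the search for miRNA sites were not used here.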

Additional observations from a re-analysis of the deposited data

Results flagged for a closer look

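The direction against the day 5 control was opposite on the miRNA arrays for 4 of the 39 genes, which is why they are listed here. The share of all expressed genes that did so was not counted, so whether 4 is many cannot be said. With 1 array per group the difference between the mixes was not tested. NUP107, of the outer ring, was at 0.02 with 2 miRNAs and −0.27 with 4. NUP205, of the inner ring, was at 0.04 and −0.21. NDC1, the membrane anchor, was at 0.02 and −0.34. IPO7, an import receptor, was at 0.13 and −0.02. All 8 values are smaller than the error of a probe set against day 5 (SD 0.58 and 0.57). Between the mixes that SD was smaller, 0.19. The 4-miRNA minus 2-miRNA differences were −0.30 for NUP107, −0.26 for NUP205, −0.36 for NDC1 and −0.15 for IPO7.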

How the results depend on the processing

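Of 164 values recomputed under the alternatives, which are counts and medians of the list and the differences of NUP93, AAAS and RANGAP1, 136 moved by less than their tolerance and 28 by more; the cause was not tested. The tolerance was 1 probe-set SD for a gene, that SD divided by the square root of the number of genes for a median, and 1.5 times for a count. Of the genes of the list past 2-fold in any comparison, 1 changed sign: NUP160 with 4 miRNAs against day 5, from 1.04 to −0.43 by the median over probe sets. With the day 7 control, the counts of lower genes were 1 and 2 for the 2-miRNA and 4-miRNA arrays, that of higher genes with 2 miRNAs was 4 (4.04%, 4.15% and 6.19% of all genes), and the medians were −0.17 and −0.26. With running-median centring the medians were −0.21 and −0.34 against the day 5 control. With the median over probe sets, the count of higher genes was 0 for both miRNA arrays and for 4 against 2 miRNAs (6.07%, 5.83% and 0.987% of all genes), the medians were −0.27 (4 miRNAs), −0.23 (day 7 against day 5) and −0.05 (4 against 2 miRNAs), where all genes had −0.13, −0.01 and −0.01, and 14 genes had both miRNA arrays below both controls. Without probe sets whose ID marks shared sequence, 29 genes were left. Their medians were −0.24 and −0.27 against day 5, where all genes had −0.11 both times, and −0.04 for 4 against 2 miRNAs. Of these 29 genes, 3 were at least 2-fold lower with 4 miRNAs (6.69% of all genes), and 14 had both miRNA arrays below both controls (48.3%, against 36.7%). With an offset of 64, 1 gene (NUP93) was lower on day 7 (1.6% of all genes) and 0 were higher with 4 against 2 miRNAs (0.513%). Over all alternatives NUP93 lay between −2.00 and −0.96 with 2 miRNAs and between −2.12 and −1.08 with 4, AAAS between −1.90 and −0.85 and between −1.06 and −0.04, and RANGAP1 between −2.25 and −1.36 and between −1.20 and −0.47. The upper ends are those with the day 7 control, except −1.36, which is the median over probe sets. Running-median centring moved the median of all genes from −0.16 and −0.15 to 0. No paired analysis was possible because each group has 1 array.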
